A study of Mus musculus with 8 samples.

Results

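Car4, Ednrb, Aplnr, Gpihbp1, Plvap, Cldn5, Cdh5, Pecam1, Tek and Kdr are genes that are expressed in the endothelium of the lung, and their RNA was followed across all groups. The 10 genes were chosen by name, with earlier results of these data known, and they are 10 of 28992 genes or unnamed accessions that were tested. Each was read from its probes by RefSeq accession, and the brightest probe stands for the gene. Lung RNA of 8 female BALB/c mice was hybridized to single-color arrays, 1 mouse to an array, on 1 slide. Mice had been bought at 4 weeks of age, housed for 2 weeks and then fed for 70 days. NT mice (n = 2) received standard feed and no ovalbumin (OVA), the egg protein used as the allergen. Ctrl-F mice (n = 2) received standard feed, Cap-F mice (n = 2) a feed with control particles that carry no oligodeoxynucleotide (ODN), and ODNcap-F mice (n = 2) a feed with carbonate apatite particles that carry a CpG-ODN. Mice of these 3 groups were injected intraperitoneally with 1 μg OVA on aluminum oxide gel on Days 42, 49 and 56, inhaled a 2% OVA aerosol daily on Days 63 to 69, and are called OVA-challenged below. NT mice differed from them in both the injections and the inhalation, so the effects of sensitization and of challenge cannot be told apart. All lungs were taken on Day 70.

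The gas exchange surface of the lung is a thin sheet of capillaries pressed against flat alveolar epithelial cells. Its endothelium is made of aerocytes and general capillary cells. Aerocytes are large cells specialised for gas exchange that express Car4 and Ednrb, whereas the general cells express Aplnr, Gpihbp1 and Plvap and act as progenitors in repair. The barrier between blood and air depends on the junctions of these cells, to which Cdh5, Cldn5 and Pecam1 belong, and their survival depends on signals through the receptors Kdr and Tek.

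On single arrays, 61.3% to 65.0% of 56605 probes were well above background, as flagged by the scanner software, and no spot was saturated. The 2 mice of a group correlated at r = 0.994 to 0.996 over the probes kept. The lung label was borne by its markers: Sftpc, Ager and Scgb1a1 lay at the 99.7th percentile of all probes or above on every array. All 10 genes were well above background on all 8 arrays. The arrays of NT and Ctrl-F lay in row 1 of the slide and those of Cap-F and ODNcap-F in row 2. Ctrl-F against NT and ODNcap-F against Cap-F are therefore comparisons within a row, and in the other comparisons group and row cannot be told apart.

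All 10 genes were lower in the OVA-challenged mice than in NT. In each of the 10, all 6 OVA-challenged mice lay below both NT mice, which 40.6% of all genes tested also did. The changes ran from 1.60-fold for Pecam1 in ODNcap-F to 4.34-fold for Ednrb in Cap-F. No feed group stood apart from the others at the level of the adjusted test. Values below are log2 intensities after quantile normalization, in which a difference of 1 is a 2-fold change. Calls were made in limma and needed a change of over 2-fold besides a p under 0.05 after Benjamini-Hochberg adjustment. The p-values set a difference against the spread between mice within groups, pooled over all groups and drawn toward that of all probes.

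**Figure D1:**
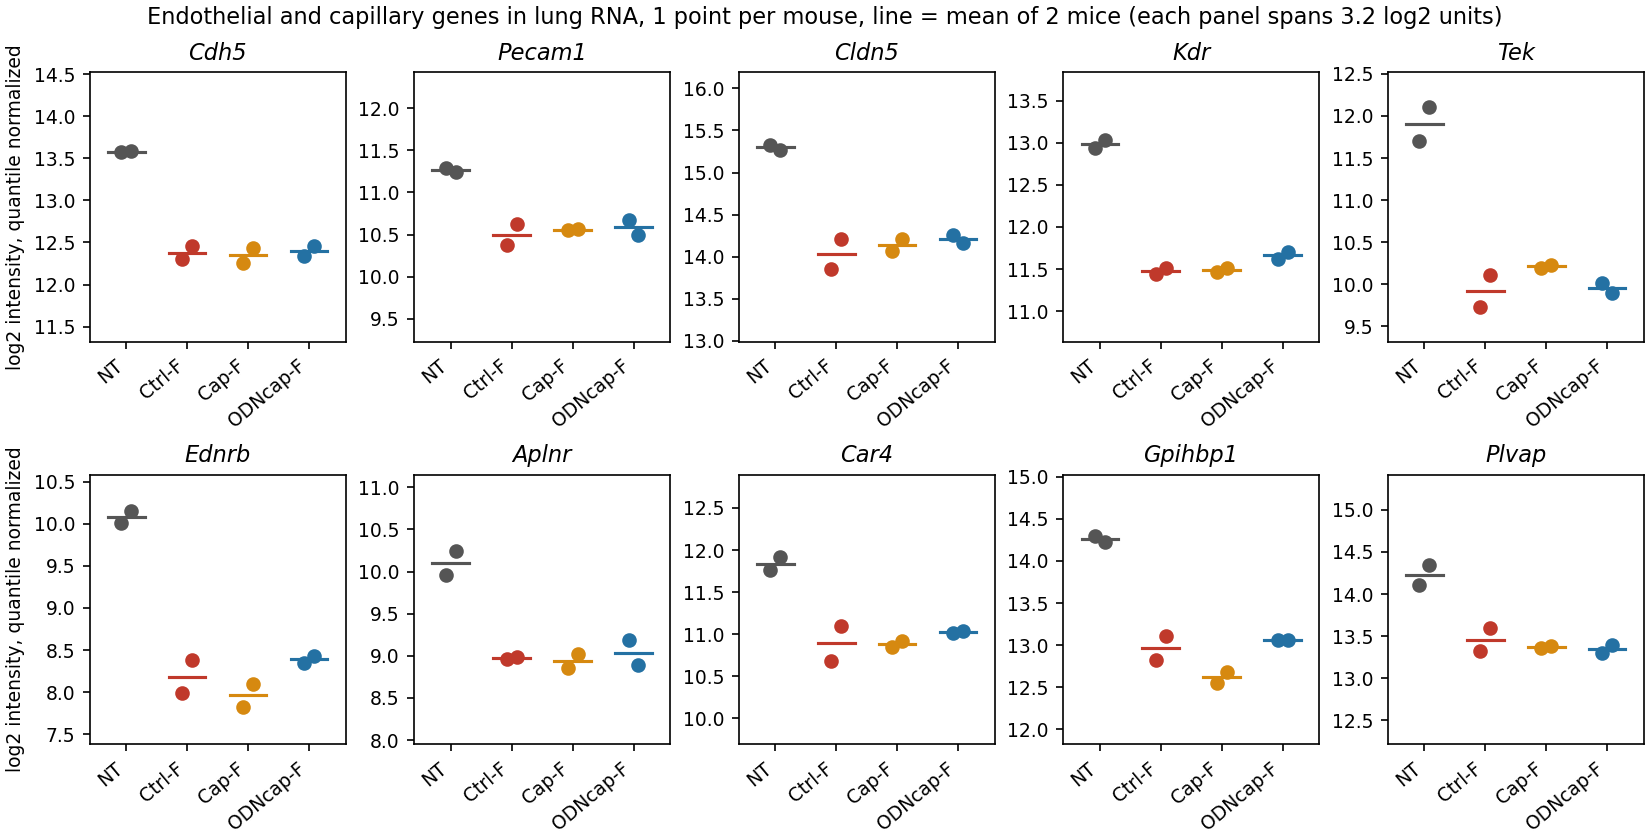
Log2 intensity (quantile normalized) of each of the 10 genes in each of the 8 mice, by group, with a line at the mean of 2 mice. Every panel spans the same number of log2 units, and in each panel the 2 NT mice lie above all 6 OVA-challenged mice, by a gap of 0.51 (Plvap) to 1.58 (Ednrb).

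Cdh5 encodes vascular endothelial cadherin, the adhesion molecule of endothelial adherens junctions. It read 13.58 and 13.58 in the NT mice, 12.30 and 12.46 in Ctrl-F, 12.26 and 12.43 in Cap-F, and 12.34 and 12.46 in ODNcap-F. NT lay well above the other groups, whose values interleaved. Cdh5 fell in Ctrl-F by 1.20 on the log2 scale (SE 0.096, adjusted p = 0.000195), a 2.30-fold change, and it was 2.35-fold lower in Cap-F and 2.27-fold lower in ODNcap-F than in NT (adjusted p = 0.000214 and 0.000236). The 6 OVA-challenged mice spanned 0.20 log2 units, the narrowest range of the 10 genes.

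Cldn5 encodes claudin-5, the main claudin of endothelial tight junctions. It read 15.33 and 15.27 in the NT mice, 13.85 and 14.21 in Ctrl-F, 14.07 and 14.21 in Cap-F, and 14.25 and 14.16 in ODNcap-F. The 2 Ctrl-F mice differed more than those of the other groups, and NT did not overlap with any. Cldn5 was 2.41-fold lower in Ctrl-F, 2.23-fold lower in Cap-F and 2.13-fold lower in ODNcap-F than in NT (adjusted p = 0.000438, 0.000724 and 0.000839). With arrays scaled to their 75th percentile instead, its log2 changes were -0.92, -0.93 and -0.76, below 2-fold in all 3 comparisons.

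Pecam1 encodes CD31, an adhesion molecule of endothelial junctions that platelets and leukocytes carry too. It read 11.28 and 11.25 in the NT mice, 10.37 and 10.63 in Ctrl-F, 10.55 and 10.56 in Cap-F, and 10.67 and 10.50 in ODNcap-F. It was lower than in NT in each group at the adjusted threshold and by less than 2-fold, with log2 changes of -0.77, -0.71 and -0.68 (adjusted p = 0.00161, 0.00251 and 0.00278). Its changes were the smallest of the 10 genes in Cap-F and ODNcap-F.

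The largest changes in Ctrl-F were in the receptor genes Tek, Ednrb and Kdr, although differences between genes were not tested. Kdr encodes VEGF receptor 2, through which vascular endothelial growth factor A acts on endothelial cells. It read 12.93 and 13.03 in the NT mice, 11.44 and 11.51 in Ctrl-F, 11.46 and 11.52 in Cap-F, and 11.62 and 11.70 in ODNcap-F. It had the smallest SE of the 10 genes, 0.074, and fell by 1.51, 1.49 and 1.32 on the log2 scale in the Ctrl-F, Cap-F and ODNcap-F groups, or by 2.84-, 2.82- and 2.50-fold (adjusted p = 4.12e-05, 4.91e-05 and 6.97e-05).

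Tek encodes Tie2, the angiopoietin receptor that holds vessels in a quiescent state. It read 11.71 and 12.10 in the NT mice, 9.74 and 10.12 in Ctrl-F, 10.20 and 10.24 in Cap-F, and 10.02 and 9.90 in ODNcap-F. The NT mice lay farther apart than in any other of the 10 genes, and still lay at least 1.47 above every OVA-challenged mouse. Tek was 3.94-fold lower in Ctrl-F, 3.22-fold lower in Cap-F and 3.85-fold lower in ODNcap-F than in NT (adjusted p = 0.000265, 0.000557 and 0.000316).

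Ednrb encodes the endothelin B receptor, which clears endothelin-1 from the lung circulation and marks aerocytes. It read 10.01 and 10.15 in the NT mice, 7.98 and 8.38 in Ctrl-F, 7.82 and 8.10 in Cap-F, and 8.34 and 8.43 in ODNcap-F. The 6 OVA-challenged mice spanned 0.61 log2 units, the widest range of the 10 genes, against a gap of 1.58 to NT. Ednrb was 3.72-, 4.34- and 3.23-fold lower than in NT in the Ctrl-F, Cap-F and ODNcap-F groups (adjusted p = 0.000223, 0.000184 and 0.000376).

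Ednrb was the only gene of the 10 with more than 1 probe, and its 3 probes carry different transcript accessions. The values above come from the probe for NM_007904. The probe for NM_001276296 gave log2 changes of -1.91, -2.30 and -1.68 against NT. The probe for NM_001136061 was dim, at 5.41 and 5.32 in NT, and was not well above background in any OVA-challenged mouse. Set against the lowest signal well above background on each array, it was at least 2.55-, 2.48- and 2.37-fold lower in the same 3 groups than in NT. All 3 probes therefore ran in the same direction.

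Car4 encodes carbonic anhydrase 4, an enzyme on the cell surface that interconverts carbon dioxide and bicarbonate and is a marker of aerocytes. It read 11.76 and 11.92 in the NT mice, 10.68 and 11.10 in Ctrl-F, 10.85 and 10.92 in Cap-F, and 11.02 and 11.04 in ODNcap-F. The highest and the lowest of the OVA-challenged mice both belonged to Ctrl-F. Car4 was lower than in NT by 0.95, 0.95 and 0.81 log2 units (adjusted p = 0.00222, 0.00252 and 0.00438), under 2-fold. Without the first NT mouse its log2 change was -1.03 in both Ctrl-F and Cap-F, and without the second Ctrl-F mouse it was -1.16 in Ctrl-F, past 2-fold.

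Aplnr, Gpihbp1 and Plvap mark general capillary cells. Aplnr encodes the apelin receptor, and read 9.96 and 10.25 in the NT mice, 8.96 and 8.98 in Ctrl-F, 8.86 and 9.02 in Cap-F, and 9.18 and 8.89 in ODNcap-F. It fell by 1.13, 1.16 and 1.07 on the log2 scale (adjusted p = 0.000972, 0.00102 and 0.00131). Each of these values is close to 2-fold, and in Ctrl-F and ODNcap-F passing 2-fold depended on single mice. In Cap-F the log2 change ran from -1.31 to -1.02 under all 20 alternatives. Without the second NT mouse the log2 change was -0.99 in Ctrl-F and -0.93 in ODNcap-F. Without the second ODNcap-F mouse it was -0.92 in ODNcap-F. With normexp background correction it was -0.96 in ODNcap-F.

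Gpihbp1 encodes the protein that carries lipoprotein lipase to the luminal face of capillaries. It read 14.30 and 14.23 in the NT mice, 12.83 and 13.11 in Ctrl-F, 12.56 and 12.68 in Cap-F, and 13.06 and 13.06 in ODNcap-F. Cap-F held the lowest pair of mice. Gpihbp1 was 2.45-fold lower in Ctrl-F, 3.13-fold lower in Cap-F and 2.30-fold lower in ODNcap-F than in NT (adjusted p = 0.000227, 0.000123 and 0.000333). With arrays scaled to their 75th percentile, the change in ODNcap-F was -0.99 on the log2 scale. Plvap encodes the protein of the diaphragms that span fenestrae and caveolae. It read 14.10 and 14.34 in the NT mice, 13.32 and 13.59 in Ctrl-F, 13.36 and 13.38 in Cap-F, and 13.30 and 13.40 in ODNcap-F. It was lower than in NT by 0.76, 0.85 and 0.88 log2 units (adjusted p = 0.00269, 0.00200 and 0.00167), less than 2-fold in each group, and had the smallest gap between NT and the other mice.

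In Ctrl-F, 7 of the 10 genes were called lower than in NT, against 12.2% of all genes tested. The count was also 7 of 10 in Cap-F (background 9.87%) and 7 of 10 in ODNcap-F (background 10.8%), with Car4, Pecam1 and Plvap under 2-fold each time. At the adjusted p alone, all 10 were lower in all 3 groups, against 35.7%, 32.4% and 34.9% of all genes. The median log2 change of the 10 genes was -1.24 in Ctrl-F, -1.20 in Cap-F mice and -1.14 in ODNcap-F, and that of all genes tested was -0.12, -0.11 and -0.12. The 3 comparisons share the same 2 NT mice, so they are not separate observations of the fall. In whole-lung RNA, fewer endothelial cells, less RNA per endothelial cell and more RNA from other cells cannot be told apart.

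**Figure D2:**
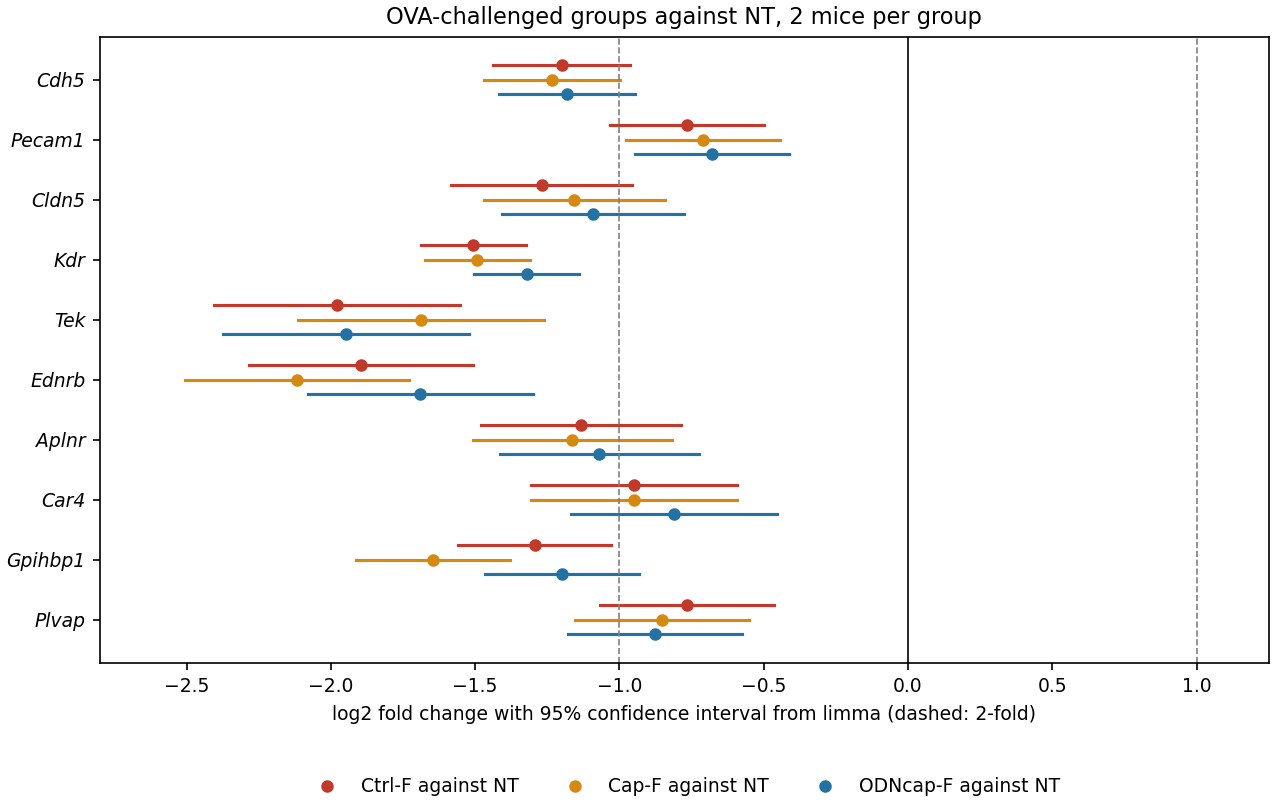
Log2 fold change against NT of each gene in the 3 OVA-challenged groups (2 mice per group), with the 95% confidence interval from limma and dashed lines at 2-fold. All intervals lie below 0, and the means of Tek and Ednrb lie farthest from it, at -1.69 to -2.12.

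Of the 10 genes, 5 had an entry in the RefSeq promoter table used here (GRCm38.p6), namely Car4, Ednrb, Cldn5, Tek and Kdr. Aplnr, Gpihbp1, Plvap, Cdh5 and Pecam1 did not. The 250 bases before the start site are shown for Tek, Ednrb and Kdr, the 3 genes with the largest changes in Ctrl-F, to show the sequence in front of genes that were lower together. Each is written 5′ to 3′ in the direction of the gene: Tek from chr4:94739039-94739288 on the plus strand, Ednrb from chr14:103843702-103843951 on the minus strand and Kdr from chr5:75978456-75978705 on the minus strand. Capitals mark AGGAA and, on the other strand, TTCCT, a form of the core bound by ETS factors. This family includes the endothelial regulators Erg and Fli1, and other forms of the core were neither marked nor counted.
Tek: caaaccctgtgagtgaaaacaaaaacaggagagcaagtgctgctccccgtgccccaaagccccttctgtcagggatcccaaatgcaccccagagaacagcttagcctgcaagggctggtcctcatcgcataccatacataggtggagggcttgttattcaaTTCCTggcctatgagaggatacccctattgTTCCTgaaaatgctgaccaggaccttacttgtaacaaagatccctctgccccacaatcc
Ednrb: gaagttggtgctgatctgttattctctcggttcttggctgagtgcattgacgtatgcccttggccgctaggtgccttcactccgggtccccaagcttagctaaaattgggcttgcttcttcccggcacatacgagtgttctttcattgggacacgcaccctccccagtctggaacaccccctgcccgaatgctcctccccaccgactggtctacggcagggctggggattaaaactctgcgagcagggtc
Kdr: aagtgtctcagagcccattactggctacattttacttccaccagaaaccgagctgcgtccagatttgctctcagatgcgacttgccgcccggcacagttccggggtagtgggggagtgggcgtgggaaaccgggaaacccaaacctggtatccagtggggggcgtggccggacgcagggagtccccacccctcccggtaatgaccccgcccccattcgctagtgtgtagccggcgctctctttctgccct
Tek held 2 matches to AGGAA or TTCCT, which began 89 and 59 bases before the start. The windows of Car4, Ednrb, Cldn5 and Kdr held no such match. Those of Car4, Ednrb and Kdr did hold the shorter GGAA or TTCC, which AGGAA and TTCCT contain. The shorter form was not counted over all promoters. A window without AGGAA or TTCCT is therefore not shown to lack an ETS core. Of 32851 promoters of the same length, 60.3% held a match. The SOX core ACAAT or ATTGT was found in 1 of the 5 windows, that of Tek, where 1 base of it belonged to an ETS match, and in 27.7% of all promoters. The GATA core AGATA or TATCT was found in 1 of the 5, that of Car4, and in 26.6% of all promoters, and the TATA box TATAAA or TTTATA in 0 of the 5 and 12.4% of all. A match describes the letters of the window and no more.

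Differences between the feeds addressed whether particles with or without the CpG-ODN changed these genes in allergen-exposed lungs. None of the 10 genes was called in ODNcap-F against Ctrl-F (background 0%), in ODNcap-F against Cap-F (background 0.00345%) or in Cap-F against Ctrl-F (background 0.00345%). The rebuilt local-pooled-error test, which takes the spread of a gene from genes of similar intensity, also called 0 of 10 in each, where it called 0.435%, 0.355% and 0.476% of all genes. At an unadjusted p under 0.05, 1 gene passed in ODNcap-F against Ctrl-F (Kdr), 2 in ODNcap-F against Cap-F (Ednrb and Gpihbp1) and 1 in Cap-F against Ctrl-F (Gpihbp1), where 6.78%, 13.4% and 16.6% of all genes did.

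Taking the brightest probe of each gene, Gpihbp1 showed the largest difference. In ODNcap-F it was 1.36 times its level in Cap-F (log2 difference 0.45, interval 0.18 to 0.71, limma adjusted p = 0.252), and it was lower by 0.35 in Cap-F than in Ctrl-F (adjusted p = 0.226). Neither passed the adjusted threshold. Ednrb was higher by 0.43 in ODNcap-F than in Cap-F (interval 0.040 to 0.82, adjusted p = 0.359). Its probe for NM_001276296 gave a larger difference than that of Gpihbp1, 0.61 (interval 0.17 to 1.05, adjusted p = 0.292). The dim probe of Ednrb, not well above background in any OVA-challenged mouse, is left out of these feed comparisons. Kdr was higher by 0.19 in ODNcap-F than in Ctrl-F (interval 0.0037 to 0.37, adjusted p = 0.740). Tek was higher by 0.29 in Cap-F than in Ctrl-F (interval -0.13 to 0.72, adjusted p = 0.449).

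The mice of ODNcap-F and Ctrl-F did not overlap in 1 of the 10 genes (Kdr), against 35.6% of all genes. Those of ODNcap-F and Cap-F did not overlap in 5 (Car4, Ednrb, Gpihbp1, Tek and Kdr), against 45.7%, and those of Cap-F and Ctrl-F in 2 (Gpihbp1 and Tek), against 51.7%. Over the brightest probes of the 10 genes, the 95% confidence intervals reached from -0.41 to 0.60 in ODNcap-F against Ctrl-F, from -0.69 to 0.82 in ODNcap-F against Cap-F and from -0.62 to 0.72 in Cap-F against Ctrl-F. Each of these intervals excluded a 2-fold difference in either direction, whereas that of the NM_001276296 probe of Ednrb in ODNcap-F against Cap-F reached 2.07-fold. Smaller differences between feeds were not resolved with 2 mice per group.

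**Figure D3:**
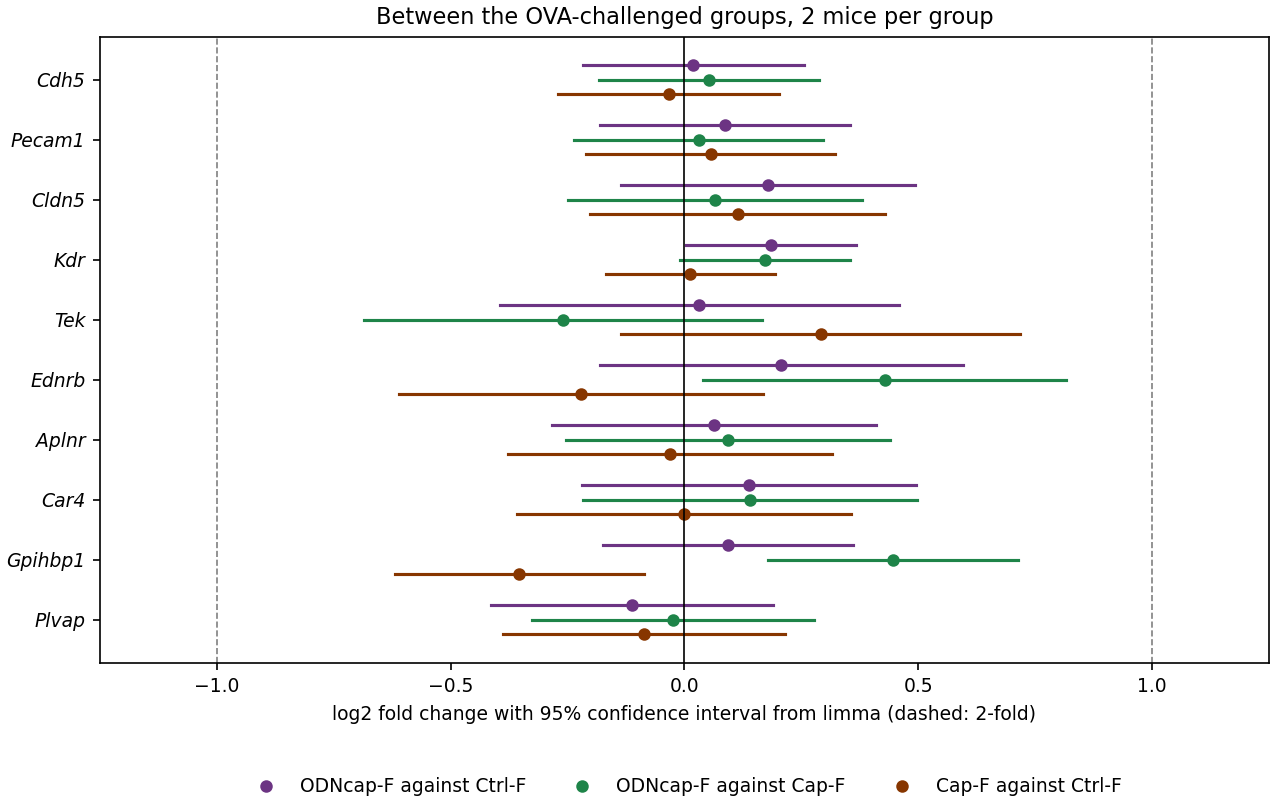
Log2 fold change of each gene between the OVA-challenged groups (2 mice per group), with the 95% confidence interval from limma and dashed lines at 2-fold. Of the intervals, those of Gpihbp1 and Ednrb in ODNcap-F against Cap-F, Gpihbp1 in Cap-F against Ctrl-F and Kdr in ODNcap-F against Ctrl-F leave out 0, and none reaches a dashed line.

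Other genes of the same vessels were listed by role under 129 symbols, of which 126 were matched to a probe and 122 could be tested. In Ctrl-F against NT, 65 of the 122 were called lower and 6 higher, where 12.2% of all genes were lower and 10.5% higher. The counts were 59 lower and 8 higher in Cap-F, and 62 lower and 8 higher in ODNcap-F (background 9.74% and 9.86% higher). The median log2 change of the 122 genes was -1.03, -1.001 and -1.04. Glp1r and Edn3 were well above background in NT alone, so they entered the test through the group in which they were high, and without them 63, 58 and 60 of 120 genes were lower. Angpt4, Edn2, Ece2 and Sele had no probe well above background on both arrays of any group and were not tested.

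General endothelial genes were the longest list. Of 25 tested, 19 were lower in Ctrl-F than in NT, 18 in Cap-F and 20 in ODNcap-F, none was higher, and the median log2 change in Ctrl-F was -1.41. The 3 largest falls in Ctrl-F were in Tmem100, a target of the BMP9 and ALK1 pathway (-2.53), in Clec14a, a lectin of the endothelial surface (-2.24), and in Ptprb, the phosphatase that dampens Tie2 signalling (-1.89). Not every general endothelial gene was lower. Cd34 was at 14.42 in NT and 14.58 in Ctrl-F (log2 difference 0.16, adjusted p = 0.0983), and Mmrn2 differed by -0.30 (adjusted p = 0.0883).

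Of 11 aerocyte genes, 9 were lower in Ctrl-F, 8 in Cap-F mice and 8 in ODNcap-F, with a median log2 change of -1.61 in Ctrl-F. Rprml fell by 2.51, the cytochrome P450 gene Cyp4b1 by 2.44 and Fibin by 2.41. Of 10 genes of general capillary cells above background in both groups compared, 5 were lower in Ctrl-F, 5 in Cap-F mice and 6 in ODNcap-F, with a median of -1.04 in Ctrl-F. Besides Tmem100, these included the semaphorin gene Sema3c (-1.63). Glp1r, the receptor of glucagon-like peptide 1, was not well above background in any OVA-challenged mouse and was not counted. It was at least 2.16-fold lower in Ctrl-F than in NT, at least 1.91-fold in Cap-F and at least 2.00-fold in ODNcap-F. Lpl, the lipoprotein lipase that GPIHBP1 binds, differed by 0.42 from NT in Ctrl-F (adjusted p = 0.0972) and was not called.

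Several ligand genes of the VEGF and angiopoietin families were lower too. Of 13 ligands and receptors of the VEGF and angiopoietin families, 9 were lower in Ctrl-F and none higher, 8 lower and 1 higher in Cap-F, and 9 lower and 1 higher in ODNcap-F. Angpt1, the activating ligand of Tie2, read 11.97 and 12.14 in the NT mice, 9.74 and 9.96 in Ctrl-F, 9.78 and 9.87 in Cap-F, and 9.84 and 10.03 in ODNcap-F, a log2 change of -2.21 in Ctrl-F (adjusted p = 5.19e-05). Vegfd fell by 2.08, and Vegfa, which alveolar epithelial cells are known to make, by 1.95. Angpt2, the opposing ligand of Tie2, differed from NT by 0.18 in Ctrl-F (adjusted p = 0.159), 0.09 in Cap-F and 0.17 in ODNcap-F, and was not called. The placental growth factor gene Pgf was the gene called higher in Cap-F (1.14) and ODNcap-F (1.06), and its log2 difference in Ctrl-F was 0.95, just under 2-fold.

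Of 4 endothelin and apelin genes above background in both groups compared, 3 were lower in each of the 3 OVA-challenged groups. Edn1, the precursor of endothelin-1 and so of a ligand of the endothelin B receptor, fell by 2.07 in Ctrl-F. Apln, the ligand of the apelin receptor and a marker of aerocytes, fell by 1.61. Edn3, well above background in NT alone, was at least 1.56-, 1.52- and 1.45-fold lower in the Ctrl-F, Cap-F and ODNcap-F mice, bounds that do not reach 2-fold. Among 13 genes for partners of the junction proteins, 6 were lower in Ctrl-F and 4 each in Cap-F and ODNcap-F, with a median of -0.99 in Ctrl-F. Jup (plakoglobin, -1.35), Ocln (occludin, -1.15) and Tjp1 (ZO-1, -1.14) had the largest changes, and several of these genes are also expressed in epithelium. Ctnnb1, which encodes the beta-catenin that binds VE-cadherin, differed by -0.14 (adjusted p = 0.189).

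Of 17 endothelial transcription factors, 8 were lower and 1 higher in Ctrl-F, 9 and 1 in Cap-F, and 8 and 1 in ODNcap-F. Sox7 fell by 1.85, Foxf1, which pulmonary capillaries need in development, by 1.70, and Klf4, a factor induced by flow, by 1.48. Mef2c rose by 1.09. Of the ETS factors, Erg fell by 1.03 and Ets2 by 1.24, and Fli1 was higher by 0.26 (adjusted p = 0.0443), less than 2-fold.

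Larger vessels and activated endothelium gave a mixed picture. Of 10 arterial genes 3 were lower in Ctrl-F, 5 in Cap-F mice and 4 in ODNcap-F, with the kinase gene Bmx (-2.04), the ephrin gene Efnb2 (-1.43) and Htra1 (-1.07) lower in Ctrl-F. Of 9 genes of veins and activated endothelium, 3 were lower and 2 higher in Ctrl-F (median -0.08), 1 lower and 2 higher in Cap-F, and 2 lower and 2 higher in ODNcap-F. The lower genes in Ctrl-F were Nr2f2, the factor that sets venous identity (-1.55), Slc6a2 (-1.51) and Ephb4 (-1.02), of which Nr2f2 was called in Cap-F and Nr2f2 and Slc6a2 in ODNcap-F. The higher genes were Ackr1, the chemokine receptor of venules, and Selp, the P-selectin to which leukocytes attach. Ackr1 read 5.03 and 5.17 in NT against 7.62 to 8.09 in the OVA-challenged mice, and rose by 2.87 in Ctrl-F, 2.76 in Cap-F mice and 2.58 in ODNcap-F. Selp read 5.42 and 5.33 in NT and rose by 2.09, 1.92 and 2.03, and platelets carry it too. Vwf, the von Willebrand factor gene, differed from NT by -0.02, 0.02 and 0.01 and was not called.

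Of 8 lymphatic genes, 1 was lower in each group (Flt4, VEGF receptor 3, -1.38 in Ctrl-F) and 1 higher (Reln, 2.59 in Ctrl-F), close to the shares of all genes given above. Among 11 genes of angiogenic tip cells, 3 were lower and 2 higher in Ctrl-F (median 0.18), 4 lower and 4 higher in Cap-F, and 3 lower and 4 higher in ODNcap-F. Esm1, a proteoglycan gene induced by VEGF, fell by 2.86, the largest fall among the 122 genes in Ctrl-F, and Apln and Adm, the adrenomedullin gene, fell by 1.61 and 1.04. Cxcr4 rose by 1.46 and Trp53i11 by 1.16. Cxcr4 is also expressed by leukocytes.

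None of the 122 genes was called between the OVA-challenged groups, and 2, 13 and 23 of them passed an unadjusted p under 0.05 in ODNcap-F against Ctrl-F, ODNcap-F against Cap-F and Cap-F against Ctrl-F, where 6.78%, 13.4% and 16.6% of all genes did. The first share lay below that of all genes and the others were near it. Hspb1, a heat shock protein gene listed with the aerocytes, had a log2 difference of -1.08 in the comparison of ODNcap-F with Cap-F. Its adjusted p was 0.286 in limma and 1.63e-09 in the local-pooled-error test. The tests differ on this gene, and which of them is right was not tested.

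**Figure D4:**
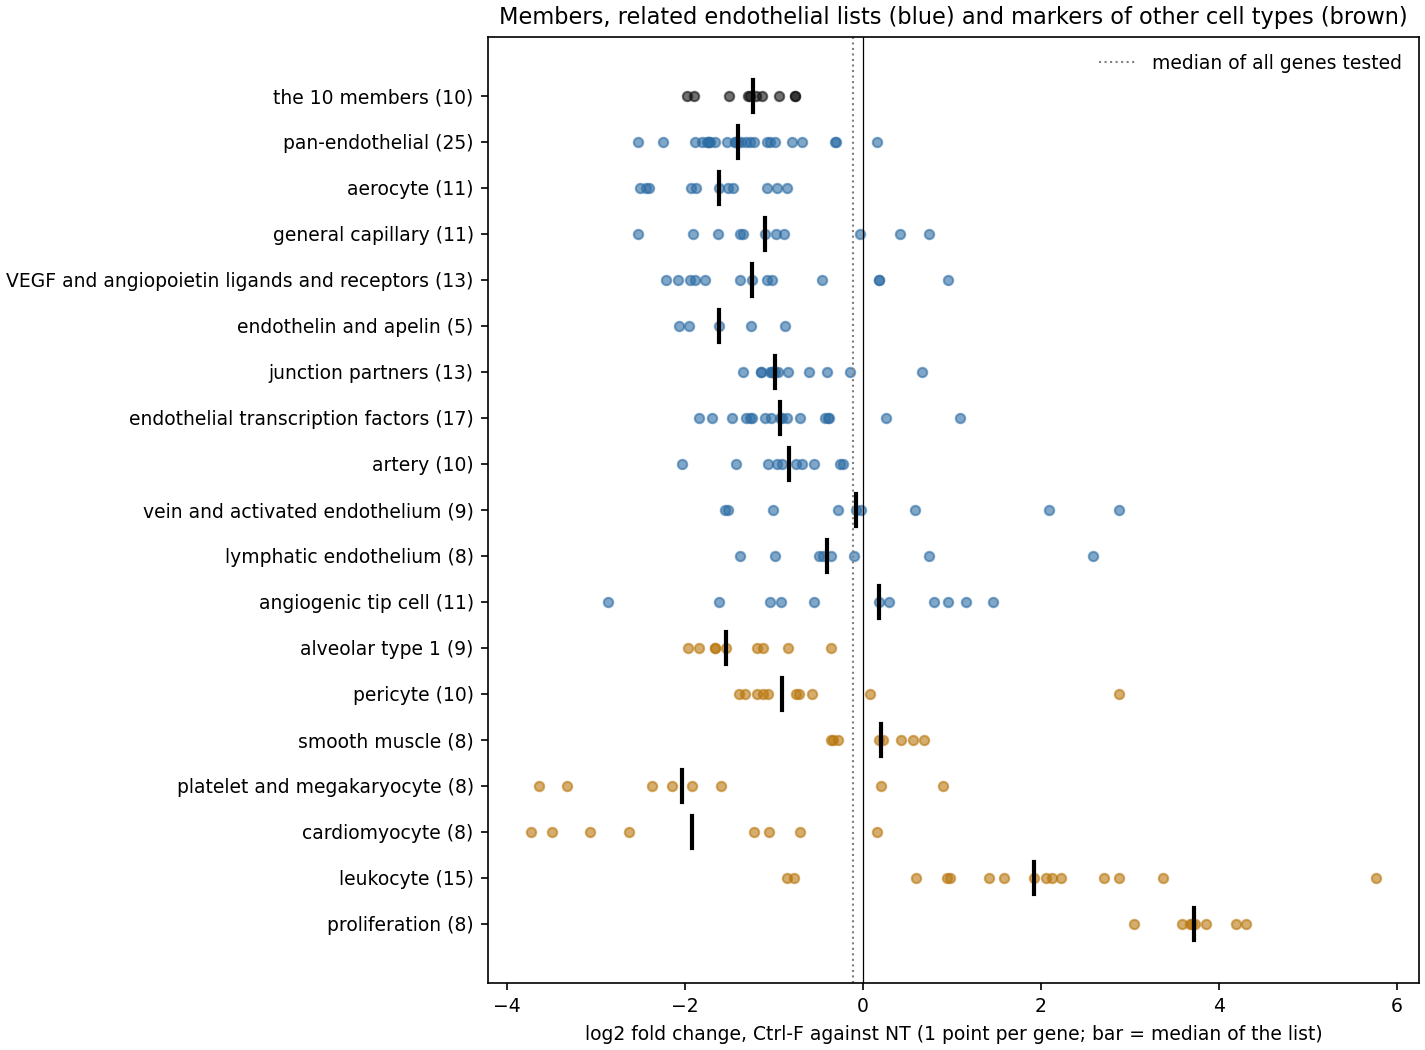
Log2 fold change in Ctrl-F against NT of the 10 genes (black), of related endothelial genes by list (blue) and of markers of other cell types (brown), with 1 point per gene, a bar at the median of each list and the number of genes tested in brackets. The medians of the 10 genes (-1.24), general endothelial genes (-1.41) and aerocyte genes (-1.61) lie left of the dotted median of all genes (-0.12), with alveolar type 1 genes (-1.54) beside them and leukocyte genes (1.92) to the right.

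Markers of other cells moved between NT and the OVA-challenged mice as well. Counts are again set against 12.2%, 9.87% and 10.8% of all genes lower, and 10.5%, 9.74% and 9.86% higher, in the same order of groups. Of 15 leukocyte markers, 10 were higher in Ctrl-F than in NT (median 1.92), 12 in Cap-F and 10 in ODNcap-F, and their summed intensity was 51612 to 58924 in NT and 138728 to 174162 in the OVA-challenged mice. Cd52 rose by 2.71 in Ctrl-F and Coro1a by 1.41, and Epx, the eosinophil peroxidase gene, was not well above background in NT and at least 27.2-fold higher in Ctrl-F. Without Epx, which entered the test through the OVA-challenged mice, 9, 11 and 9 of 14 leukocyte markers were higher. All 8 proliferation markers were higher in each group, with a median of 3.72 in Ctrl-F, Mki67 at 3.67 and Birc5 at 3.85, and their sum was 1961 to 2155 in NT and 24289 to 28419 in the other mice. Of 9 markers of alveolar type 1 cells, the flat cells that the capillaries adjoin, 7 were lower in each group, with a median of -1.54 in Ctrl-F. Their sum was 354542 to 366765 in NT and 150650 to 178988 in the others. Sec14l3 fell by 1.66, and Ager was lower by 0.84, less than 2-fold.

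Pericytes wrap the capillaries. Of 10 pericyte markers, 5 were lower and 1 higher in Ctrl-F, 1 and 1 in Cap-F, and 3 and 1 in ODNcap-F, and their sum was 19966 to 22896 in NT and 12446 to 16687 in the others. In Cap-F both counts were at the share of all genes, as was the count of higher genes in each group. The higher gene was Rgs5 (2.87 in Ctrl-F). Higd1b was lower by 0.72 in Ctrl-F, less than 2-fold, and Postn differed by 0.08 (adjusted p = 0.730). None of 8 smooth muscle markers was called in any group, with Acta2 at 0.43 and Tagln at -0.28 in Ctrl-F, and at an unadjusted p under 0.05 there were 2, 3 and 3 in the order above, where 66.4%, 61.9% and 64.8% of all genes passed. Of 8 platelet and megakaryocyte markers, 6 were lower in Ctrl-F, 5 in Cap-F mice and 6 in ODNcap-F, while Pf4 was higher by 0.90 in Ctrl-F and Itgb3 differed by 0.20. Without Gp5, which was not well above background in Ctrl-F or ODNcap-F, 5 of 7 were lower in each of these groups. Their sum was 15428 to 16411 in NT and 14679 to 20090 in the others.

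Cardiomyocyte markers varied between mice of a group. Of 8, 5 were lower in Ctrl-F, 0 in Cap-F mice and 1 in ODNcap-F, and at an unadjusted p under 0.05 there were 6, 2 and 2. The 1 gene in ODNcap-F is near the share of all genes, and the 2 each in Cap-F and ODNcap-F at an unadjusted p lie below the 61.9% and 64.8% of all genes. Their sum was 16372 to 33315 in NT, 5423 to 6818 in Ctrl-F, 5550 to 18280 in Cap-F and 13972 to 20800 in ODNcap-F. Myh6 differed from NT by -3.74 in Ctrl-F, -2.49 in Cap-F mice and -0.77 in ODNcap-F, and Myl4 by -1.22 in Ctrl-F (adjusted p = 0.0607). Among the markers of other cells, Epx in NT and Gp5 in Ctrl-F and ODNcap-F were not well above background in any mouse. The part of these shifts in the values of the 10 endothelial genes was not tested.

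Among genes outside all the lists, those whose profile over the 8 arrays was nearest to the mean profile of the 10 genes were Ccdc85a (r = 0.9998), Emp2 (r = 0.999), Parva (r = 0.999), Plxna1 (r = 0.999) and Bvht (r = 0.998). The 8 points share their libraries and are mainly 2 levels, NT and the rest, so such values are easily reached: 258 of 16374 genes compared had an r over 0.99. Ccdc85a read 9.99 and 10.13 in NT and 8.30 to 8.62 in the OVA-challenged mice, and fell by 1.59 in Ctrl-F. Emp2, a membrane protein gene of alveolar type 1 cells, read 15.74 and 15.81 in NT and 14.11 to 14.45 in the others. The 10 genes themselves had r from 0.974 (Gpihbp1) to 0.993 (Cdh5) with the mean profile, which contains them.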

How the data were processed

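Total lung RNA was labelled with Cy3 and hybridized to Agilent single-color arrays. The authors deposited, per array, the background-subtracted intensity of each spot with quality flags from Agilent Feature Extraction 11.0 (version per the submitters' processing notes), and a value table of quantile-normalized log2 values for 32312 probes that they had filtered. No gene coordinates are given, because the genome build of the array design was not settled here.

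Control spots were left out, 792 flagged spot values were set to missing, and log2 intensities were averaged per probe and quantile normalized over 8 arrays. A probe was kept where both mice of any group were well above background (37116 probes). Accessions were named through a RefSeq table, which matched 32994 probes (58.3%). Values recomputed here differed from the deposited table by a median of 0.00516 and at most 0.348. All arrays entered 1 fit in limma 3.58.1 (R 4.3.3) with 4 groups and no covariate, which had 4 residual and 1.96 prior degrees of freedom. The p-values were adjusted by Benjamini-Hochberg over all probes kept. An exact permutation test of 2 against 2 mice cannot go below p = 0.333 (two-sided), so none was used. The methods' local-pooled-error test was rebuilt with 100 intensity bins and a spline of 10 degrees of freedom as the alternative test. Both were tested on simulated data, where the local-pooled-error test made far more false calls, and limma was taken as the main test. The simulated spread of each probe was drawn from limma's own fit and did not follow intensity. Such data favor limma and cannot decide between the tests.

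The genes and lists were chosen with earlier results of these data known. Named were the 10 genes, up to 3 called genes of the largest change in each direction per related list in Ctrl-F against NT, the 2 brightest genes per marker list and the 5 genes of the most similar profile. Other genes in the text (such as Cd34, Mmrn2, Lpl, Cd300lg, Angpt2, Pgf, Ctnnb1, Erg, Ets2, Fli1, Vwf, Epx, Gp5, Rgs5 and Hspb1) were chosen after their values were seen. Gpr116 (the older symbol of Adgrf5, which was tested), Sept4, Apela and Rtkn2 matched no probe by name, which does not show that the array lacks one. Alternatives were scaling to the 75th percentile, normexp background correction (offset 50, on median signals), the authors' log2 values, the filter dropped or required on all arrays, a replicate block, a variance that follows intensity, separate fits per pair of groups, the mean of a gene's probes, other thresholds and each array left out. The number of arrays limits the precision.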

Additional observations from a re-analysis of the deposited data

How the results depend on the processing

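Under all 20 alternatives, each of the 10 genes was lower in each OVA-challenged group than in NT. With all arrays kept, each was so at an adjusted p under 0.05 (highest 0.0150, in limma). The alternatives that changed only the threshold reused the main estimates and adjusted p-values, so for them this was fixed in advance. The other settings moved only which genes passed 2-fold. With scaling to the 75th percentile 6, 6 and 5 genes were called against NT in the 3 groups (order Ctrl-F, Cap-F, ODNcap-F), with normexp correction 7, 7 and 6, and with the adjusted p alone 10, 10 and 10. With 1 array left out, 6 to 8, 7 to 8 and 6 to 7 genes were called, and 64 to 81, 64 to 68 and 63 to 71 of the related genes. The remaining mouse of a group was then assumed to vary like the other groups. Over all genes, normexp correction gave 3552, 3048 and 3146 calls against NT in place of 6603, 5685 and 5999, and the adjusted p alone gave 17941, 16395 and 17389.

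Deviations of same-numbered mice from their group means correlated at -0.012 to 0.16, highest between Cap-F and ODNcap-F. Whether same-numbered mice share more than the number was not tested. With the replicate number as a block, 7, 7 and 7 of the 10 genes and 71, 68 and 69 of the related genes were called, and 6589, 5689 and 5989 of all genes.

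Between the OVA-challenged groups, no alternative called any of the 10 genes. Among related genes, 1 (Hspb1) was called in ODNcap-F against Cap-F with an unadjusted p, and 1 (Hspb1) with the local-pooled-error test. The sign of small differences turned. With scaling to the 75th percentile, Plvap was at 0.063 in ODNcap-F against Cap-F, and Cldn5 and Kdr at -0.010 and -0.044 in Cap-F against Ctrl-F. With normexp correction, Aplnr, Cdh5 and Kdr were at 0.0025, 0.0024 and -0.045 in Cap-F against Ctrl-F. With single arrays left out, differences that turned sign ranged as follows. In ODNcap-F against Ctrl-F, Car4 lay between -0.075 and 0.35, Aplnr between -0.084 and 0.21, Gpihbp1 between -0.049 and 0.24, Plvap between -0.25 and 0.023, Cdh5 between -0.061 and 0.10, Pecam1 between -0.042 and 0.22, and Tek between -0.16 and 0.22. In ODNcap-F against Cap-F, Aplnr lay between -0.053 and 0.24, Plvap between -0.075 and 0.025, Cldn5 between -0.0054 and 0.13, Cdh5 between -0.033 and 0.14, and Pecam1 between -0.058 and 0.12. In Cap-F against Ctrl-F, Car4 lay between -0.21 and 0.21, Aplnr between -0.11 and 0.052, Plvap between -0.22 and 0.048, Cldn5 between -0.062 and 0.29, Cdh5 between -0.12 and 0.053, Pecam1 between -0.073 and 0.19, and Kdr between -0.020 and 0.046. The cause was not tested.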
